A study of Mus musculus with 2 samples.

Results

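Kupffer cells are described here as the 300 cells with the highest share of UMIs from 4 genes, Clec4f, Cd5l, Csf1r and Vsig4, among 11927 cells of 2 single-cell libraries that had 1000 to 4500 detected genes and at most 5% of UMIs from mitochondrial genes. A UMI is a molecular barcode that counts 1 captured probe pair. The members made up 300 of 39559 cells in all, 192 of them from the Tom- library and 108 from the Tom+ library. The livers came from male p16-Tom mice on a C57BL/6 background, heterozygous for p16-CreERT2 and for the R26-CAG-LSL-tdTomato-WPRE reporter, after 4 weeks of CCl4, a hepatotoxin that causes fibrosis, and tamoxifen. Both libraries shared this genotype and treatment. In this line tamoxifen lets the Cre recombinase, driven by the p16Ink4a promoter, switch on tdTomato for good in cells of any type. The promoter must be active enough at that time, and the study proposes that a threshold of its activity matters. The labels call the fractions p16low (Tom-) and p16high (Tom+). Fixation came before dissociation. Hoechst+, MitoBrilliant 646+ events were then sorted into Tom+ and Tom- fractions by a gate meant for hepatocytes, so any Kupffer cell in these libraries passed a gate made for other cells. The number of mice behind each library and their age are not given in the sources used here, and each fraction is 1 library. Every comparison of Tom+ with Tom- below is therefore between 2 libraries. Other comparisons are between groups of cells within a library or over both. None carries a p-value, and all intervals cover counting error only.

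Kupffer cells are the resident macrophages of the liver sinusoids. They take up blood-borne particles, dying cells and old red blood cells, return iron to the circulation and feed complement proteins into the blood. Their identity rests on signals from neighbouring stellate cells, endothelial cells and hepatocytes, and on transcription factors such as PU.1, LXR-alpha and ID3. In injured liver, resident Kupffer cells can be lost and monocyte-derived macrophages can take up the niche, among them cells rich in GPNMB and TREM2 that are known as lipid-associated or scar-associated macrophages.

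The members held 967540 UMIs in the Tom- library and 432973 in the Tom+ library, with a median of 4165.5 and 3534 UMIs and of 2225 and 2027 genes per cell. Hepatocyte-rich profiles, the 5951 eligible non-members at or above the median hepatocyte RNA content of eligible cells, served as the main reference and had a median of 13252.5 and 14786 UMIs. The other references were the 300 cells richest in 4 sinusoidal endothelial markers (endothelial-high), the 300 richest in 14 lymphocyte, neutrophil and dendritic markers (leukocyte-high) and the 300 cells ranked next after the members. The 2 libraries shared 503 cell barcodes. Of the members, 11 had such a barcode, and 0 barcodes were members in both libraries. Levels are given as CPM (counts-per-million) over the summed UMIs of a group of cells. Probe capture differs between genes, so levels are compared between cells for 1 gene, not between genes.

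The ranking that chose the members had no step at its end. The 4 markers took 5.10% of the UMIs of the highest cell, a median of 1.40% over the members, and 1.0174% and 1.0164% in the last pair of members, against 1.0153% and 1.0124% in the first pair of cells outside. The median eligible non-member had 0.0257%, and 2415 non-members had no UMI of any marker. Cd5l, which encodes a secreted scavenger receptor protein that blocks apoptosis of macrophages, gave 67.5% of the members' marker UMIs. Clec4f, a galactose-binding lectin restricted to Kupffer cells in the mouse, gave 23.3%. Csf1r, the receptor for the macrophage growth factor CSF1, gave 6.16%, and Vsig4, a complement receptor that clears bacteria, gave 3.002%. These shares say what drove the score, not which transcript was more abundant. Cd5l was counted in all 300 members, with 3 to 228 UMIs and a median of 37.5. Clec4f was counted in 284 members, Csf1r in 276 and Vsig4 in 216, and 198 members had all 4. These values chose the cells and are a description of the choice. The 16 members without a Clec4f UMI were not all shallow, at 2028 to 10408 UMIs a cell. The median member had 15 Clec4f UMIs. All 16 had UMIs of Cd5l and Csf1r, and most had none of Vsig4. Further Kupffer genes, listed below, took 0.17% to 1.07% of their UMIs, against medians of 0.89% in Tom- and 0.85% in Tom+ members. Whether these 16 are Kupffer cells was not tested.

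**Figure D1:**
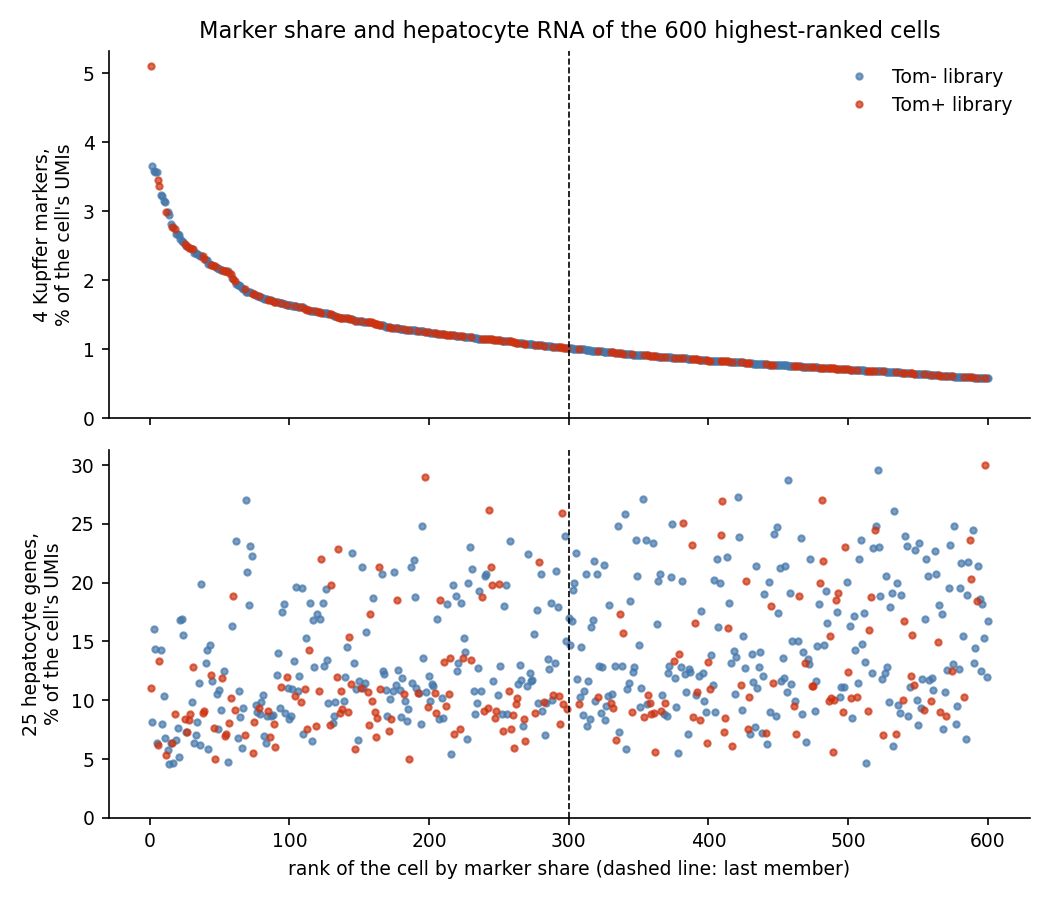
Each point is 1 of the 600 highest-ranked cells, placed by rank (x axis) and by the share of its UMIs from the 4 markers (upper panel, %) or from 25 hepatocyte genes (lower panel, %), blue for the Tom- and red for the Tom+ library. The marker share runs from 5.10% at the top through 1.02% at the last member without a step, while hepatocyte RNA spans 4.61% to 29.0% among the members.

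The members came more often from the Tom+ library than its number of eligible cells would give, but this depended on the gene range. They were 2.21% of 8675 eligible Tom- cells (Clopper-Pearson 95% interval 1.91 to 2.55) and 3.32% of 3252 eligible Tom+ cells (2.73 to 4.00), a ratio of 1.501 (1.17 to 1.91). With up to 10000 genes allowed, the study's own ceiling, the ratio turned to 0.731, and with 2000 to 4500 genes it was 1.06. Most Tom+ cells lay above 4500 genes, where 2 of 12254 Tom+ and 27 of 13635 Tom- cells reached the marker share of the last member. Below 1000 genes, 60 of 781 Tom+ and 44 of 854 Tom- cells did. The sort was made for hepatocytes, so these shares do not measure how many Kupffer cells the livers held.

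The start regions of 5 Kupffer genes are shown. They were picked, among the genes on which the results below turn, for holding a motif of PU.1 or MAF factors, which are central to macrophage identity. The same 250 bases of Clec4f, Cd163, Gpnmb, Nr1h3, C6 and Saa1 were also scanned, held neither motif and are not printed. RefSeq promoters (build GRCm38.p6) were found for 3 of the 4 markers and for 15 of 17 further Kupffer genes. Each line gives the 250 bases before the transcription start, 5′ to 3′ on the strand of the gene. Capitals mark GAGGAA, the core of PU.1 sites, or TGCTGAC, a MAF half-site, on either strand.
Cd5l (chr3:87357631-87357880, strand +): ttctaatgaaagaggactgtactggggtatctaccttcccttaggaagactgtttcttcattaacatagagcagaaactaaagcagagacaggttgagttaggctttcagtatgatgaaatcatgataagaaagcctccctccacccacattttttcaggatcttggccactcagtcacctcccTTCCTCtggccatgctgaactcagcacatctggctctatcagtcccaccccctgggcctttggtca
Vsig4 (chrX:96293439-96293688, strand -): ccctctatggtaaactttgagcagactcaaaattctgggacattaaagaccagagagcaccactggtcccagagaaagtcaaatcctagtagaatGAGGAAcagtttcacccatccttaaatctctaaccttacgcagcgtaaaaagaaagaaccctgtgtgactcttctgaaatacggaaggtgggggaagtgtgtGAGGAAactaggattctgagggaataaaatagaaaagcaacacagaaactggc
Marco (chr1:120505025-120505274, strand -): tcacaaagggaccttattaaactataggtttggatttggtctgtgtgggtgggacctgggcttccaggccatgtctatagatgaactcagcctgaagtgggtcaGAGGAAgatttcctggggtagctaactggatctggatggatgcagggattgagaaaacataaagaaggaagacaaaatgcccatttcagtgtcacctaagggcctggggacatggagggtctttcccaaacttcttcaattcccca
Fcna (chr2:25627975-25628224, strand -): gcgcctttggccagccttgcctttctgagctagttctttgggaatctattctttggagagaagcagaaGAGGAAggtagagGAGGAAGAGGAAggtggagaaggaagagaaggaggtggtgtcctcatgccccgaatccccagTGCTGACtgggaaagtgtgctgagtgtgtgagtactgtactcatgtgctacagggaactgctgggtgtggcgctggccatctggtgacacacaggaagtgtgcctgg
Timd4 (chr11:46810549-46810798, strand +): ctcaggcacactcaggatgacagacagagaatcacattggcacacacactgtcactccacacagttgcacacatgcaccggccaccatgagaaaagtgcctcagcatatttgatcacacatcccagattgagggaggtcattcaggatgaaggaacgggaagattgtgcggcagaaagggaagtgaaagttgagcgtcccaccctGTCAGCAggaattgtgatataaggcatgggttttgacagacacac
In the window of 300 bases that also holds 50 bases after the start, GAGGAA stood in 31.3% of all 27025 promoters and TGCTGAC in 5.28%. GAGGAA stood in 2 of the 3 marker promoters, in 5 of 15 promoters of further Kupffer genes and in 7 of 12 promoters of general macrophage genes, against 3 of 18 for hepatocyte genes and 3 of 9 for endothelial genes. TGCTGAC stood in 2 of the 15 promoters of further Kupffer genes, those of Fcna and Timd4. Hepatocyte genes held it in 2 of 18 promoters and endothelial genes in 1 of 9. It stood in 0 of 12 promoters of general macrophage genes and in 0 of the 3 marker promoters. The 2 motifs share no overlapping letters in the lines above. A match is a description of the letters, not of a bound site.

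Genes that the rule did not use also carried the Kupffer label. Of 15 further Kupffer genes that passed the minimum (50 CPM in the members or the hepatocyte-rich profiles of each library and 20 UMIs), 14 were at least 2-fold higher in the members than in hepatocyte-rich profiles in both libraries, against 32.3% of all 4502 genes that passed. The opposite direction held for 7.37% of all genes, and for 0 of these 15. The median log2 ratio of the list was 4.94 in the Tom- and 4.78 in the Tom+ library, against 0.44 and 0.53 over all genes. Paqr9 was the exception, at 146 and 132 CPM in the members and 113 and 115 CPM in hepatocyte-rich profiles. The cells were chosen on markers that travel with these genes, so the counts describe the members and test nothing. The minimum also shaped every such count: of the 1455 genes 2-fold higher over all genes, 1237 passed the minimum only through the members' own level, and so did 10 of the 14 Kupffer genes. The counts of the lists below carry the same limit.

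Among the 17 further Kupffer genes were genes of iron export, particle uptake and lipid sensing. Slc40a1, the iron exporter ferroportin, was at 2019 CPM in Tom- and 1894 CPM in Tom+ members, against 169.95 and 152 CPM in hepatocyte-rich profiles. Cd163, the receptor for haptoglobin-bound haemoglobin, was at 1993 and 1649 CPM, against 45.7 and 39.0. Fcna, a ficolin that starts the lectin pathway of complement, was at 1295 and 1298 CPM, against 42.3 and 38.3. Each of these genes stood more than 10-fold above hepatocyte-rich profiles in either library. Timd4, a phosphatidylserine receptor of long-resident macrophages, was at 235 and 173 CPM against 6.52 and 5.32. Nr1h3, which encodes LXR-alpha, was at 485 and 473 CPM against 74.7 and 70.8, and Id3 at 430 and 483 CPM against 71.0 and 66.8. Id3 is also an endothelial gene: it was at 593 and 644 CPM in the 300 cells richest in sinusoidal endothelial markers. Clec1b, a C-type lectin, was likewise shared with those cells (462 and 557 CPM against 519 and 566 in the members). Cxcl13 had 4 and 1 UMIs in the members, too few for a ratio.

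General macrophage genes followed. Of 20 listed, 19 passed the minimum, 17 of them only through the members. These 19 were at least 2-fold higher than in hepatocyte-rich profiles, against 32.3% of all genes. Ctss, a lysosomal protease, was at 1998 and 2217 CPM. Tyrobp, the adaptor of activating immune receptors, was at 1530 and 1418 CPM, and Adgre1, which encodes F4/80, at 412 and 434 CPM, against 11.4 and 6.77. Ptprc, the leukocyte antigen CD45 whose clusters the study set aside, was at 356 and 309 CPM against 10.5 and 7.83. By the rule for named genes, the 10 genes with the largest ratio over hepatocyte-rich profiles (the smaller of the 2 libraries) were Mmp27, Rgs1, Rab39, Abcg3, Cd86, Kcna2, Nfam1, Pde1b, Batf3 and Epb41l3, which stood at 112 to 381 CPM in the members. Mmp27, a matrix metalloproteinase, led with log2 ratios of 6.09 and 6.14 (112 and 141 CPM against 1.64 and 1.98). Rgs1, a regulator of chemokine receptor signalling, followed with 5.68 and 6.12 (381 and 356 CPM against 7.42 and 5.10).

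**Figure D2:**
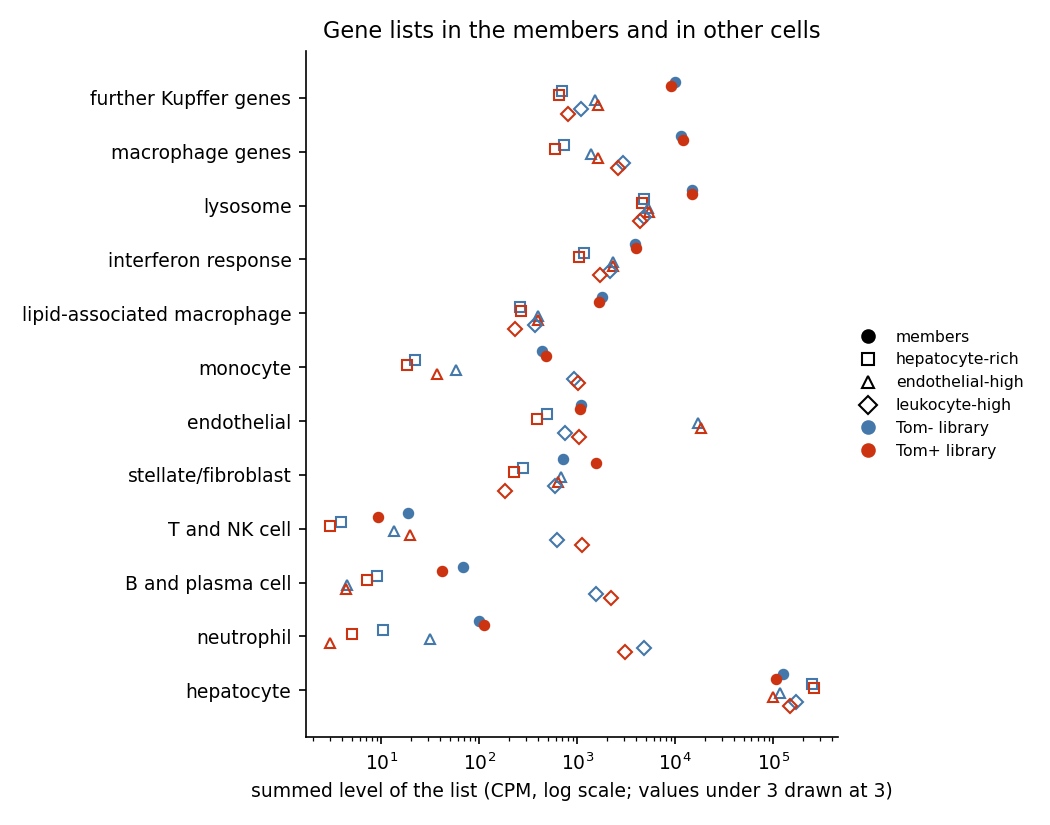
Summed level of 12 gene lists (x axis, CPM, log scale) in the members (filled circles), hepatocyte-rich (squares), endothelial-high (triangles) and leukocyte-high (diamonds) profiles, blue for the Tom- and red for the Tom+ library. The members carry the highest levels of the Kupffer and macrophage lists (10044 and 9017 CPM for further Kupffer genes) and lie below the leukocyte-high cells for T and NK cell genes (18.6 and 9.24 against 619 and 1107 CPM).

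Transcription factors known from macrophages came next. Of 14 factors that passed, 11 were at least 2-fold higher than in hepatocyte-rich profiles in both libraries, against 32.3% of all genes, and 6 of the 11 passed the minimum only through the members. The list summed to 5838 CPM in the members, 4142 CPM in endothelial-high cells and 1924 CPM in hepatocyte-rich profiles. Spi1, which encodes PU.1, was at 152 and 118 CPM against 4.93 and 4.11, and Spic, the factor of red pulp and iron-handling macrophages, at 59.9 and 55.4 CPM against 1.66 and 0.837. Maf was at 1080.1 and 1148 CPM against 129.8 and 115, and higher still in endothelial-high cells, at 1782 and 2150.1 CPM. The exceptions were Rxra, Cebpb and Bhlhe40, which hepatocytes also use. Cebpb was at 705 and 684 CPM against 774 and 748.

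Receptors for the signals of the niche were counted in the members but were not particular to them. The list of CSF1R, TGF-beta and Notch inputs summed to 562 CPM in the members, 197 CPM in hepatocyte-rich profiles, 516 CPM in leukocyte-high and 1860 CPM in endothelial-high cells. Of its 4 genes that passed, all through the members alone, 3 were at least 2-fold higher than in hepatocyte-rich profiles. Notch1 was at 86.8 and 78.5 CPM against 28.6 and 23.3, Tgfbr2 at 115 and 106 against 28.1 and 29.1, and Tgfbr1 at 104 and 164 against 22.4 and 20.5. Tgfbr1, a TGF-beta receptor kinase, had a log2 ratio of Tom+ over Tom- members of 0.65 (0.19 to 1.10). Of 12 genes of cholesterol handling and LXR, 6 were at least 2-fold higher, against 32.3% of all genes, and 5 of the 6 passed the minimum only through the members. Abcg1, a sterol exporter, was at 87.9 and 97.0 CPM against 3.17 and 2.21, and Soat1, which stores cholesterol as esters, at 124 and 129 CPM against 3.24 and 2.05. Apoe was near the hepatocyte-rich level, at 16878 and 15627 CPM against 19971 and 19147.

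Of 15 scavenger and efferocytosis genes, 14 were at least 2-fold higher in the members than in hepatocyte-rich profiles in both libraries, 11 of them past the minimum only through the members. The list summed to 9614 CPM in the members, 6004 CPM in endothelial-high cells and 1308 CPM in hepatocyte-rich profiles. Axl and Mertk, receptor kinases for dying cells, were at 1436 and 1471 CPM and at 582 and 707 CPM. In endothelial-high cells Axl was at 47.1 and 52.4 CPM and Mertk at 377 and 432 CPM. C1qb, a subunit of the first complement component, was at 4249 and 4310 CPM against 159.9 and 139.6, and it was counted in every member. Cfp, properdin, was at 1076 and 1035 CPM against 45.9 and 38.9. Of 12 complement genes 7 were at least 2-fold higher, against 32.3% of all genes, and 5 of the 7 passed the minimum only through the members. The others are known as hepatocyte products: C3 was at 5043 and 4552 CPM in the members and 9705 and 10129 CPM in hepatocyte-rich profiles. C4b, Cfb and C2 also stayed under a 2-fold difference in at least 1 library.

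Iron and lysosome genes were partly shared. Of 13 iron and heme genes, 9 were at least 2-fold higher, against 32.3% of all genes. Cp, ceruloplasmin, was the 1 that passed 2-fold downward, at 408 and 374 CPM against 853 and 817. Hmox1, which degrades heme, was at 439 and 515 CPM against 17.7 and 10.8. Fth1, ferritin heavy chain, was at 1170.0 and 1090.1 CPM against 1309 and 1508. Of 23 lysosome genes, 16 were at least 2-fold higher. Lgmn, a lysosomal protease, differed widely (546 and 480.4 CPM against 28.0 and 23.5), while Lamp1 (557 and 577 against 428 and 455) and Npc1 (194 and 178 against 187 and 192) were close to the hepatocyte-rich level.

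Sensing, antigen presentation and interferon genes were also higher in the members than in hepatocyte-rich profiles. Of 12 pattern receptor and inflammasome genes, 11 were at least 2-fold higher, against 32.3% of all genes. Of the 11, 10 passed the minimum only through the members. Tlr4, the receptor for bacterial lipopolysaccharide, was at 81.7 and 85.5 CPM against 2.46 and 2.43, and Nlrp3 at 80.6 and 76.2 CPM against 2.27 and 0.913. Of 10 antigen presentation genes, 8 were at least 2-fold higher, against the same 32.3%, and 7 of the 8 passed only through the members. Cd74, the class II chaperone, was at 774 and 1019 CPM against 44.9 and 40.6. Of 11 interferon response genes, 10 were at least 2-fold higher, and 6 of the 10 passed only through the members. Irf7 was at 1064 and 956 CPM against 179.5 and 153.6. Oas2 was at 556 and 554 CPM against 14.7 and 10.1. The other references stood closer. Over both libraries the antigen presentation list summed to 3733 CPM in the members, 3990 CPM in leukocyte-high and 1821 CPM in endothelial-high cells, against 1513 CPM in hepatocyte-rich profiles. The interferon list summed to 3929 CPM in the members, 2024 CPM in leukocyte-high and 2331 CPM in endothelial-high cells, against 1141 CPM.

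Genes of lipid-associated macrophages were present over the members as a whole. Of 11 listed genes 6 passed the minimum, 5 of them only through the members. These 6 were at least 2-fold higher than in hepatocyte-rich profiles, against 32.3% of all genes. The list was not highest in the members. Over both libraries it summed to 1754 CPM in the members and 2109 CPM in the cells ranked next after them. Endothelial-high cells had 395 CPM, leukocyte-high cells 333 CPM and hepatocyte-rich profiles 260 CPM. Gpnmb was at 469 and 519.7 CPM in the members, against 24.1 and 8.21 in hepatocyte-rich profiles. Lgals3 was at 260.5 and 238 against 7.94 and 3.50, and Trem2 at 50.6 and 67.0 against 1.53 and 0.913. How these UMIs were spread over the cells is given below with the sets of members.

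Few cytokines were measured well. Of 24 cytokine and chemokine genes, 7 passed the minimum and 6 were at least 2-fold higher, against 32.3% of all genes. Cxcl1 was 2-fold lower (22.7 and 34.6 CPM against 76.9 and 80.2), against 7.37% of all genes downward. The 6 passed the minimum only through the members and Cxcl1 only through hepatocyte-rich profiles. Il18 was at 207 and 187 CPM, Cxcl16 at 117 and 129 CPM and Il1b at 73.4 and 76.2 CPM. Tnf had 10 and 3 UMIs, Il10 had 17 and 6, and Ccl2 had 10 and 1. Il12b and Ccl8 had 0 UMIs in both libraries, and the limit that a count of 0 allows, 3 UMIs, is 3.10 CPM for Tom- and 6.93 CPM for Tom+ members. Among matrix and growth factors, Tgfb1 was at 133 and 118 CPM against 13.2 and 10.0, Pdgfc at 85.8 and 64.7 against 14.1 and 12.7, and Timp2 at 102 and 78.5 against 6.20 and 4.79. Spp1 had 3 and 0 UMIs.

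The study asked whether LIF receptor family signals link p16-high hepatocytes to stellate cells, so all 16 measured genes of the 17 listed are given. Of 4 of its genes that passed the minimum, 0 were 2-fold apart between members and hepatocyte-rich profiles in both libraries. Lifr, the receptor, was at 462 and 489.6 CPM in the members and 1060.0 and 932 CPM in hepatocyte-rich profiles. Il6st, the shared subunit gp130, was at 152 and 157 CPM against 110 and 111, Il6ra at 158 and 198.6 against 112 and 105, and Stat3 at 92.0 and 90.1 against 114 and 107. Among ligands, Lif and Il11 had 0 UMIs in the members of both libraries and Osm had 1 and 0. Il6 had 27 and 5 UMIs, or 27.9 and 11.5 CPM, against 0.332 and 0.152 CPM in hepatocyte-rich profiles. Ctf1, cardiotrophin 1, had 10 and 2 UMIs, or 10.3 and 4.62 CPM, against 6.44 and 6.77 CPM. Clcf1, a cardiotrophin-like ligand, had 9 and 7 UMIs, or 9.30 and 16.2 CPM, against 2.56 and 2.89 CPM. Both ligands were thus counted in the members at few UMIs. Cntf had 8 UMIs in either library and Il27 had 12 and 7. Among receptors, Osmr, the oncostatin M receptor, had 4 and 7 UMIs, Il27ra 6 and 0, and Cntfr 0 in both. Socs3, a feedback inhibitor of the pathway, had 4 and 0.

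Monocyte and dendritic genes were mixed. Of the defining monocyte genes, S100a4, Chil3, Clec4e and Ace had 0 UMIs, and Ccr2 had 21 and 19 UMIs, held by 11 Tom- and 6 Tom+ members. Plac8 was at 256 and 247 CPM and Treml4 at 99.2 and 111 CPM. Flt3, Xcr1, Siglech, Cd209a and Ccr7, which define dendritic cells, had 0 UMIs. Clec9a and Batf3, known mainly from dendritic cells, were nevertheless at 300.8 and 376 CPM and at 236 and 187 CPM, against 12.4 and 11.3 and 4.34 and 4.18 CPM in hepatocyte-rich profiles. T and NK cell genes summed to 18.6 and 9.24 CPM over 15 genes, against 619 and 1107 CPM in leukocyte-high cells, and cholangiocyte genes to 12 UMIs over all 300 members. The 10 neutrophil genes summed to 95 and 48 UMIs, or 98.2 and 111 CPM, in 60 of 192 and 36 of 108 members, against 4815 and 3053 CPM in leukocyte-high cells. Csf3r, the receptor for G-CSF, gave 85 and 46 of these UMIs and was 4.36 and 5.05 above hepatocyte-rich profiles on the log2 scale. S100a9 had 8 and 1 UMIs, S100a8 and Retnlg 1 and 0, Mpo 0 and 1, and Cxcr2, Elane, Camp, Ngp and Ly6g 0 in both libraries.

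RNA of hepatocytes was present in every member. The 25 hepatocyte genes took a median of 11.6% of the UMIs of a Tom- member (4.61 to 27.1) and 9.39% of a Tom+ member (4.97 to 29.0), against 23.9% and 24.6% in hepatocyte-rich profiles. Alb alone was at 63277 and 52218 CPM in the members against 123908 and 134816. All 25 genes stood between 39.5% and 67.5% of the hepatocyte-rich level in the Tom- library, with a median of 48.5%, and between 34.7% and 60.0% in the Tom+ library, with a median of 42.2%. In endothelial-high cells the same 25 genes took 10.8% of UMIs, against 12.01% in the members. Whether this RNA lay inside the cells, on attached fragments or free in the suspension was not tested.

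Down the ranking the macrophage content became thinner and the hepatocyte content thicker. In the first, second and last 100 members by rank, hepatocyte genes took 9.54%, 13.2% and 13.4% of UMIs, general macrophage genes 1.53%, 1.04% and 0.888%, and further Kupffer genes 1.19%, 0.888% and 0.824%. The next 300 cells had 16.3% of hepatocyte RNA and 0.569% of further Kupffer RNA. Across cells, marker share and further Kupffer share had a Pearson r of 0.30 in 192 Tom- and 0.37 in 108 Tom+ members, and marker share and hepatocyte share of -0.28 and -0.21. These pairs share the total UMIs of each cell, which ties them arithmetically.

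RNA of stellate and endothelial cells was counted in most members but reached 1% of UMIs in few. Stellate list UMIs were found in 129 of 192 Tom- and 72 of 108 Tom+ members, with a median of 1 UMI, and endothelial list UMIs in 166 and 93, with medians of 3 and 2. Stellate and fibroblast genes made up 1% or more of UMIs in 3 Tom- and 2 Tom+ members, and endothelial genes in 1 and 2. The 10% of members richest in stellate RNA held 62.8% of the stellate UMIs in the Tom- and 75.2% in the Tom+ library. No member reached 1% for T and NK, B, neutrophil or cholangiocyte genes.

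The members were not uniform among themselves. To describe this, the 30 members with the highest level of a gene or list were set beside the other 270. The sets were formed on measured values, overlap in part and are a description with no test. The genes named for each set were taken from those with the largest folds among genes with at least 100 CPM and 30 UMIs in the set, chosen after their values were seen.

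The sharpest set was formed by Gpnmb, a transmembrane glycoprotein of lipid-laden macrophages. Gpnmb was counted in only 51 of 300 members, and 30 of them (19 Tom- and 11 Tom+) held 95.4% of its UMIs. The last of them had 1 UMI of Gpnmb. Summed over the 30, Mmp12, macrophage elastase, was at 399 CPM against 5.61 CPM in the other 270, but 9 of the 30 held all its 61 UMIs in the set. Adam8 was at 432 against 12.8 CPM (counted in 20 of the 30), Cd63 at 700.3 against 68.1 CPM (in 23), and Trem2, a lipid receptor of scar-associated macrophages, at 268 against 29.7 CPM (in 16). Fabp5, Ms4a7 and Hpgds were also among the largest folds. The genes of resident Kupffer cells were split. On the log2 scale Marco was 3.18 lower, Timd4 2.86 lower, Fcna 1.92 lower and Cd163 1.64 lower, and the summed list of further Kupffer genes was 0.77 lower. Slc40a1 was at -0.01, Siglec1 at -0.22 (-0.51 to 0.06) and Clec1b at 0.30 (-0.02 to 0.61). The rule's own markers differed less than Marco, with Clec4f at -0.52, Csf1r at -0.15, Cd5l at -0.02 and Vsig4 at 0.42 (0.10 to 0.74). Hepatocyte RNA was 0.50 lower. The median UMI count of the set was 4249, against 3776 in the other members.

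Marco, a scavenger receptor for bacteria and particles, formed another set. It was counted in 164 members, and the 30 highest members (22 Tom- and 8 Tom+) held 52.6% of its UMIs. These 30 had 0 UMIs of Gpnmb, against 679 (548 CPM) in the other 270, and less H2-Ab1, a class II gene (49.5 against 204 CPM). They carried more Cd163 and Fcna, with log2 differences of 0.76 and 1.04. They also carried more RNA of hepatocyte genes, with the whole hepatocyte list 0.36 higher and Saa2, Saa1, Otc and Sds among the largest folds. Saa1 was at 1164 CPM against 165 CPM, and Sds, an amino acid enzyme of periportal hepatocytes, at 817 against 422 CPM.

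Few members held Gpnmb, and most sets formed on another gene or list had little of it. Of its 679 UMIs the set highest in Timd4 had 0, that highest in Fcna 1, in Cd163 2, in the cell cycle list 2, in Hmox1 7, in the endothelial list 15 and in the stellate list 20. The sets highest in the interferon list, Cd74 and Cd36 had 44, 59 and 347. A low level of Gpnmb was thus not particular to the sets of resident Kupffer genes. In the set highest in Timd4, Cd163 was 1.20 higher on the log2 scale, and in the set highest in Cd163, Timd4 was 1.02 higher and Il1b, an inflammatory cytokine, was at 273 against 53.0 CPM. The 30 members highest in Cd74 (14 Tom- and 16 Tom+) had H2-Eb1 and H2-Ab1 at 1519 against 112 CPM and 1092 against 83.5 CPM. Next came H2-Aa and then Dcn, a stellate gene, at 357 against 107 CPM, with 9 of the 30 members holding a UMI. Ecm1, also of the stellate list, was at 349.9 against 149 CPM, and the whole stellate list was 0.74 higher (0.52 to 0.95). Its part in this set was not tested. The set also had more Lyz2 (2162 against 889.8 CPM), less Marco, at 294 against 1334 CPM, and less Timd4, by 1.46 on the log2 scale. Gpnmb in this set was close to the other members, at -0.26.

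Cell cycle genes formed a further set. The 30 members with the highest share of these genes (21 Tom- and 9 Tom+) held 55.4% of their UMIs. The lowest count of list UMIs in the set was 4, and whether its cells were dividing was not tested. Hmmr, Kifc1, Kif23, Pkmyt1 and several histone genes, which belong to S phase and mitosis, were among the largest folds. Hmmr was counted in 12 of the 30. The 4 markers stood slightly above the other members in this set, by 0.31 on the log2 scale. Gpnmb had 2 UMIs in it against 677 in the rest (12.5 against 545 CPM). Mki67, the proliferation antigen, had 73 and 19 UMIs over all members, or 75.4 and 43.9 CPM. The set was deeper than the rest, with a median of 5044.5 UMIs against 3755.5.

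**Figure D3:**
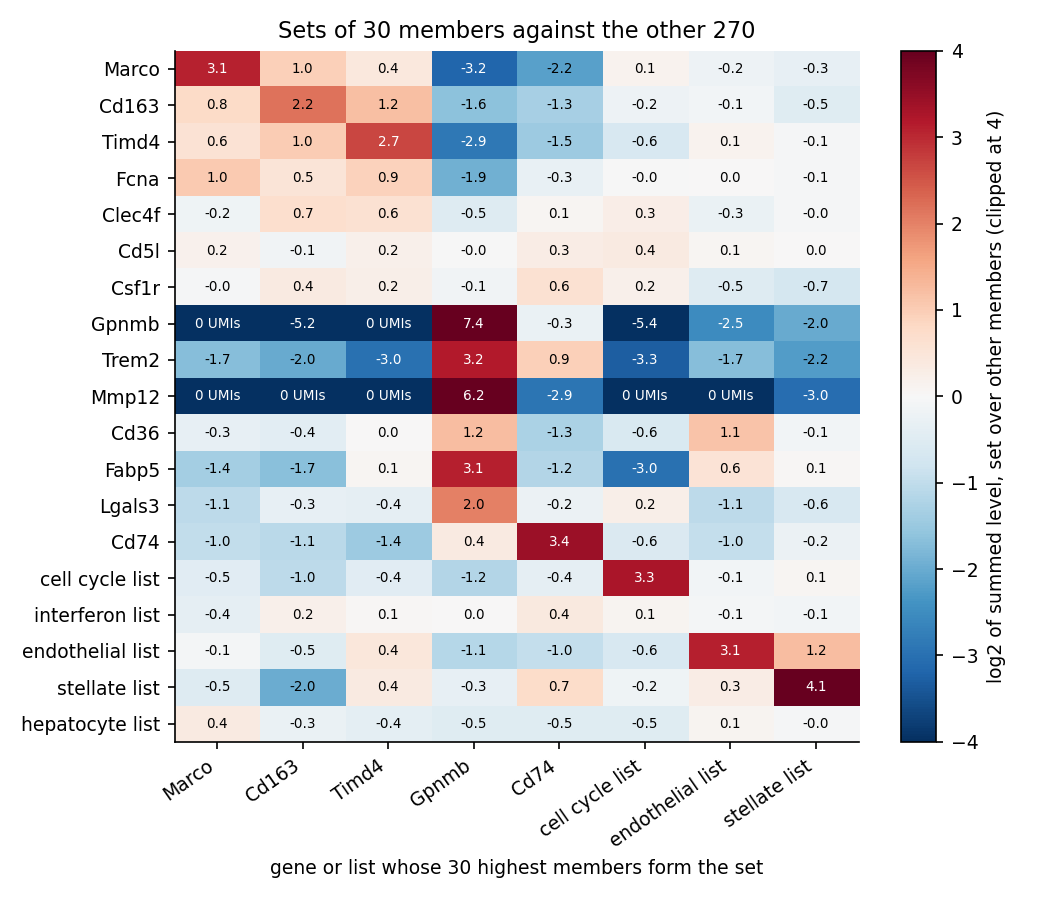
Each column is the set of 30 members highest in the gene or list named below it, each row a gene or list, and each cell the log2 ratio of the summed level in the set over the other 270 members (red higher, blue lower, clipped at 4 in colour, with 0 UMIs in the set written out). The column set by Gpnmb is blue for Marco (-3.18), Timd4 and Cd163 and red for Trem2, Mmp12 and Fabp5, and cells where row and column name the same gene show the choice itself.

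Reporter RNA was read next, since it defines the 2 fractions. Tom- members had 65 tdTomato UMIs, or 67.2 CPM (exact Poisson 95% interval 51.8 to 85.6). Tom+ members had 106, or 245 CPM (200.4 to 296), which gives a log2 ratio of Tom+ over Tom- of 1.87 (1.41 to 2.33). Hepatocyte-rich profiles had 112 and 981 CPM of it, or 3.13 on the log2 scale. The ratio of the members was thus smaller than in hepatocyte-rich profiles by more than counting error. It was close to that of endothelial-high cells (94.3 and 358 CPM, log2 1.93, 1.43 to 2.45) and below that of leukocyte-high cells (60.1 and 493 CPM, log2 3.03, 2.43 to 3.68) and of the next 300 cells (83.0 and 655 CPM, log2 2.98, 2.64 to 3.33). Over the first, second and last 100 members it was 2.71 (1.75 to 3.76), 1.49 and 1.59, with intervals that overlap, so the first 100 also overlapped hepatocyte-rich profiles. It rose to 2.55 with 600 members and to 2.46 with 150 a library.

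The share of cells with a reporter UMI was also read at equal depth, for the members and for 2 of the references. After each cell was thinned to 1000 UMIs, 6.77% of Tom- and 25% of Tom+ members had a tdTomato UMI, against 10.2% and 55.6% of hepatocyte-rich and 8.39% and 26.8% of endothelial-high cells. Without thinning it was 22.4% and 59.3% of the members. The tdTomato level of the members was 59.9% of the hepatocyte-rich level among Tom- cells and 24.96% among Tom+ cells. For the 25 hepatocyte genes, these percentages were 39.5 to 67.5 and 34.7 to 60.0. The reporter in Tom+ members therefore lay below the band that hepatocyte RNA occupied, and in Tom- members within it. The hepatocyte-rich profiles were chosen for a high share of these 25 genes and not on tdTomato. The percentages of the reporter and of the band are thus not like measures. Whether a Tom+ member made the reporter itself was not tested.

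**Figure D4:**
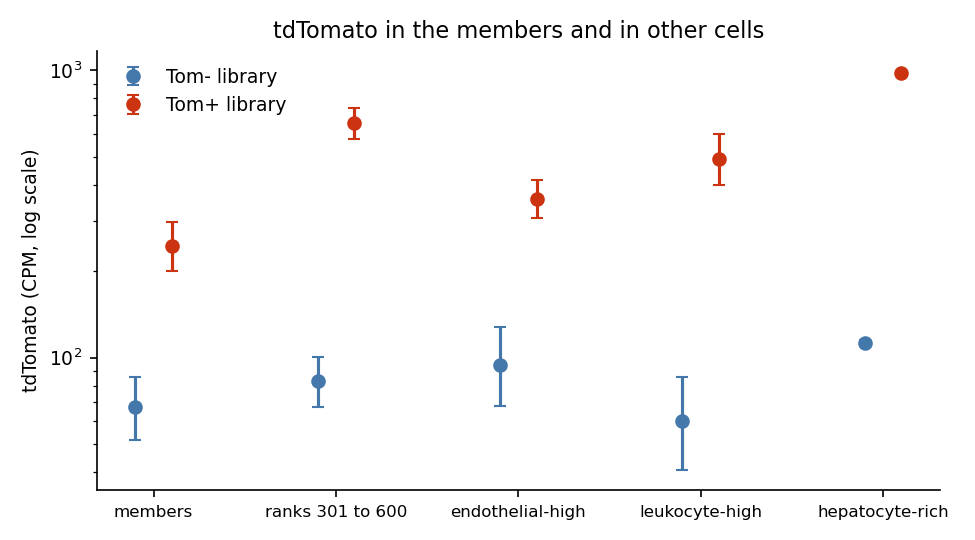
tdTomato level (y axis, CPM, log scale) in the members and 4 other groups of cells (x axis), blue for the Tom- and red for the Tom+ library, with bars for the exact Poisson 95% interval of 1 library. The Tom+ members, at 245 CPM, lie below the Tom+ hepatocyte-rich profiles, at 981 CPM, and near the endothelial-high cells, at 358 CPM.

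The p16 transcripts themselves were too rare to compare. Cdkn2a, the locus that encodes p16Ink4a and p19Arf, had 12 UMIs in Tom- and 5 in Tom+ members, or 12.4 and 11.5 CPM, against 0.537 and 0.608 CPM in hepatocyte-rich profiles. Its log2 ratio of Tom+ over Tom- was -0.10, with an interval of -1.96 to 1.51, so neither a difference nor its absence could be read at this depth. Cdkn2b had 0 and 1 UMIs. Cdkn1a, p21, was at 112 and 94.7 CPM against 98.0 and 70.5.

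The 2 libraries' members were alike for most genes. Among 4922 genes that passed 50 CPM in either sum and 20 UMIs over both, with tdTomato left out, 75 (1.52%) passed 2-fold upward in Tom+ against Tom- members and 25 (0.508%) passed it downward. These counts moved with the choice of members, to 164 and 130 with 150 members and to 1 and 6 with 600. Of the 75, 64 passed 50 CPM only through the Tom+ sum, and of the 25, 20 only through the Tom- sum. Since 50 CPM is fewer UMIs in the smaller Tom+ sum, the minimum let more genes through on that side (565 against 336 over all genes). The median log2 ratio was 0.07. The 4 markers, by whose summed share the rule chose the cells, were at 3607 and 4141 CPM for Clec4f and 11280.2 and 10109 CPM for Cd5l. Csf1r was at 943 and 1116 CPM and Vsig4 at 454 and 557 CPM. Of 16 further Kupffer genes 0 were 2-fold higher and 1, Marco, was 2-fold lower, with a median of -0.01. Marco is also the 1 of 16 scavenger genes that passed downward. Of 19 general macrophage genes 0 passed 2-fold in either direction, with a median of 0.04. The same held for all 24 lysosome, 12 complement, 13 iron, 14 macrophage factor and 13 pattern receptor genes that passed the minimum.

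Marco was the largest difference among Kupffer genes. Tom- members had 1416 UMIs of it and Tom+ members 304, or 1464 and 702 CPM, with a log2 ratio of -1.06 (exact conditional interval -1.24 to -0.88). A member of the Tom- library held 0 to 75 UMIs, with a median of 1.5, and a Tom+ member 0 to 29, with a median of 1, so the ranges overlapped up to 29 UMIs and the highest members were Tom- cells. The ratio was -1.08, -0.57 and -1.37 in the first, second and last 100 members, and -0.55 to -1.12 over the alternative choices. With the 10% richest members of each library left out, it was -1.25. Marco was lower in the Tom+ library outside the members too, with a log2 ratio of -0.89 in eligible non-members and -0.52 in hepatocyte-rich profiles. Cd163 and Timd4, which moved with Marco among the members, were at -0.27 (-0.40 to -0.15) and -0.44 (-0.83 to -0.06). Fcna, which also moved with Marco, was at 0.003 (-0.14 to 0.15).

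Other macrophage genes differed in smaller numbers of UMIs. Cd36, a fatty acid and lipoprotein receptor, was at 261 and 134 CPM, with a log2 ratio of -0.96 (-1.40 to -0.55), and its ratio was 0.00 in hepatocyte-rich profiles and 0.09 in endothelial-high cells. Over the alternative choices the ratio in the members ran from -1.27 to -0.33. The 30 members highest in Cd36 held 46.9% of its UMIs. Among their largest folds were Mmp12, Gpnmb and endothelial genes such as Clec4g (300 against 59.2 CPM). Only 8 of these 30 held a UMI of Mmp12, 7 of Gpnmb and 11 of Clec4g. The part that endothelial RNA had in this ratio was not tested. Mmp12 was at 61.0 and 20.8 CPM, but 9 Tom- and 5 Tom+ members held all of it, and the sign of its ratio turned under 3 alternative choices. Fcgr1, the high-affinity IgG receptor, was at 117 and 194 CPM, with a log2 ratio of 0.73 (0.31 to 1.15). Cd74 was at 774 and 1019 CPM, or 0.40 (0.22 to 0.57). Itgb5, an integrin subunit used in uptake of dying cells, was at 238 and 358 CPM, or 0.59 (0.29 to 0.89). Gpnmb was at 469 and 519.7 CPM, with a log2 ratio of 0.15 and an interval of -0.09 to 0.38. Over the alternative choices that ratio ran from -0.68 to 0.48. Of 5 cell cycle genes that passed, 0 were 2-fold apart, and their median was -0.63. With 2000 to 4500 genes the ratio of Mki67 turned from -0.78 to 0.32 and that of Top2a from -0.66 to 0.78. The sign held in 20 of 22 alternatives for either gene and in all 22 for Pcna.

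The remaining lists gave few genes, to be read against 1.52% of all genes upward and 0.508% downward. Of 8 lipid-associated macrophage genes, 2 passed 2-fold downward, Mmp12 and Fabp5 (51 and 11 UMIs), and Fabp5 is also the 1 of 12 cholesterol and LXR genes that did. Of 12 interferon genes 1 passed upward, Ifi44, at 24.8 and 67.0 CPM, and the list had a median of 0.12. Of 9 immediate early genes 2 passed upward, Egr1 (25 and 24 UMIs) and Myc (25 and 23 UMIs). The log2 ratio of Egr1, 1.10, turned to -0.15 with 150 members. Of 8 matrix and growth factor genes, Mmp14, a membrane metalloproteinase, passed upward with 34 and 35 UMIs and Mmp12 downward. Of 11 antigen presentation genes 0 passed, with a median of 0.29, and 0 of 6 cytokine, 0 of 8 cell cycle inhibitor and senescence, 0 of 10 endothelial and 0 of 25 hepatocyte genes passed in either direction. Each of these counts is of 1 or 2 genes and rests on fewer than 60 UMIs a library for the genes named.

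Hepatocyte RNA differed between the libraries' members in kind as well as in amount. Cyp2e1, an enzyme of pericentral hepatocytes, was at 440.3 and 808 CPM in the members, with a log2 ratio of 0.88 (0.67 to 1.08), against 0.41 in hepatocyte-rich profiles. A list of 10 pericentral genes, chosen after values were seen, summed to a log2 ratio of 0.60 in the members, 0.26 in hepatocyte-rich profiles and 0.61 in all eligible non-members. Periportal genes went the other way, at -0.52, -0.18 and -0.40. Leukocyte-high cells, with 0.54 and -0.54, and endothelial-high cells, with 0.42 and -0.64, showed the same signs. The summed zonal lists in the members thus had the same signs as in these other cells, but single genes differed. Glul was at 0.46 (-0.01 to 0.93) in the members, against 1.28 in eligible non-members. Oat was at 0.53 (-0.10 to 1.14) against 1.39, and Slc1a2, with 26 and 12 UMIs, at 0.04 (-1.08 to 1.08) against 1.49. Cyp2e1 (0.88 against 0.79) and Cyp2c29 (0.44 against 0.49) stood closer.

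Saa1 and Saa2, acute phase apolipoproteins of hepatocytes, had the lowest ratios along with Pkmyt1, Mmp12 and Asb2, the 5 smallest by the rule for named genes. Saa1 stood at 353 and 115 CPM, with a log2 ratio of -1.61 (-2.07 to -1.18), against -0.12 in hepatocyte-rich profiles. The 10% richest Tom- members held 64.3% of its UMIs and 1 cell held 86. Without the 10% richest members of each library it was at 158 and 77.0 CPM, or -1.04. Over the alternative choices it lay between -1.69 and -0.47. Saa2 had 107 and 11 UMIs, and 34 Tom- and 11 Tom+ members held them.

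Stellate and matrix genes were among the highest ratios. The 5 largest by the rule, with tdTomato (1.87) left out, were Col6a1, Hand2, Ctgf, Mtmr3 and Ccdc80, at 2.91, 2.37, 1.84, 1.77 and 1.77 on the log2 scale. All but Ctgf reached the minimum only in the Tom+ sum. Mtmr3, a lipid phosphatase, is not a stellate or matrix gene and had 17 and 26 UMIs. Ctgf, a matrix protein of stromal cells, was at 68.2 and 245 CPM, and its ratio turned to -0.056 without the members richest in stellate RNA. Col6a1, a collagen chain, had 8 UMIs over the Tom- and 27 over the Tom+ members, and Hand2, a factor of stellate cells, had 13 and 30. Of 8 stellate and fibroblast genes that passed, 6 were at least 2-fold higher in Tom+ members, against 1.52% of all genes, and the list had a median log2 ratio of 1.12 and summed to 714 and 1536 CPM. Dcn, decorin, was at 77.5 and 254 CPM, Col1a2 at 119 and 270.2 CPM and Col3a1 at 100.3 and 233 CPM. In hepatocyte-rich profiles the same list had a ratio of -0.31, and in endothelial-high cells -0.11.

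These stellate UMIs were concentrated in the richest members. Dcn was counted in 40 of 192 Tom- and 24 of 108 Tom+ members, and 1 Tom+ member held 34 of its 110 UMIs. With the 10% of members richest in stellate RNA left out of each library (29 cells), the list summed to 324 and 437 CPM, with a log2 ratio of 0.43 (0.14 to 0.71), and 2 of 4 genes passed 2-fold. Over the alternative choices, from 0 to 7 stellate genes were at least 2-fold higher, and 0 were with 600 members, with 2000 to 4500 genes, with Cd5l left out of the score or with a score of mean log levels. Under these 4 choices the ratios of Col1a2 and Col3a1 turned negative, from -0.070 to -0.63. In the next 300 cells the list had a ratio of -0.84, at 2075 and 1156 CPM. The part that attached or mixed stellate material had in this difference was not tested beyond these values.

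**Figure D5:**
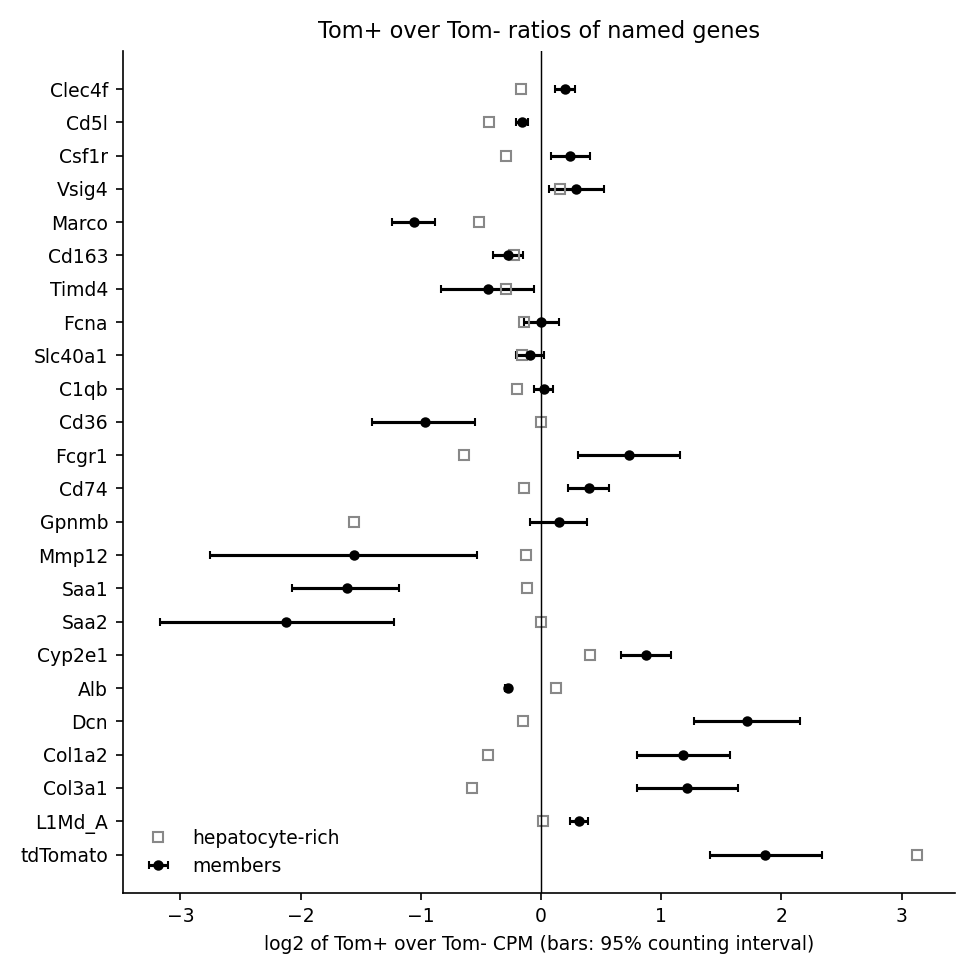
Log2 ratio of Tom+ over Tom- CPM (x axis) of named genes in the members (black, with the exact 95% counting interval) and in hepatocyte-rich profiles (open squares). Most Kupffer genes lie near 0, Marco (-1.06), Cd36 and the serum amyloid genes lie to the left, and Dcn, Col1a2, Col3a1 and tdTomato (1.87) to the right.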

How the data were processed

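Fixed, sorted cells of 1 Tom- and 1 Tom+ library were profiled with a probe-based kit (Chromium Fixed RNA, 10x Genomics) to which 3 custom entries, tdTomato among them, had been added. Per the submitters' processing notes, the authors made the deposited UMI count matrices with Cell Ranger 7.2.0 on mm10, as whole counts with no normalization, for 19073 features and 39559 cells.

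Cells with 1000 to 4500 genes and at most 5% mitochondrial UMIs were ranked by the share of UMIs from 4 markers, and the first 300 were taken. Counts were summed per library (Python 3.11.15, numpy 2.4.6, scipy 1.17.1, pandas 2.3.3, matplotlib 3.10.9) and scaled to CPM. With 1 library per group no test was possible, so ratios of Tom+ over Tom- carry exact conditional binomial 95% intervals, levels exact Poisson intervals and shares Clopper-Pearson intervals. All cover counting error only. A gene entered the 2-fold counts if 1 of the sums reached 50 CPM and both together 20 UMIs; a pseudocount of 0.5 UMIs was used. Ratios printed for single genes have no pseudocount. Shares of cells with a UMI were compared after thinning to 1000 UMIs. No doublet caller was run. An alternative left out only the 3 members that were also among the 300 eligible cells highest for the endothelial or leukocyte markers. Mixes with hepatocytes or stellate cells were not removed by it. Other alternatives left out the 10% of members richest in stellate, endothelial or hepatocyte RNA. The scripts were tested on simulated data.

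Named genes were the markers, the 10 largest ratios over hepatocyte-rich profiles (at least 100 CPM), the 5 largest and 5 smallest Tom+ over Tom- ratios, up to 6 of each list by level and ratio, and genes of the p16, LIF receptor and macrophage literature. Other named genes were picked after their values were seen. The members and the 31 gene lists were chosen with earlier results of these data known. Of 436 list entries, 9 are not analysed here. A few list members' own values are not reported here, though the counts over their lists include them. Promoter sequences came from RefSeq (GRCm38.p6).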

Additional observations from a re-analysis of the deposited data

Results flagged for a closer look

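Saa2, an acute phase gene of hepatocytes, was higher in the members than in hepatocyte-rich profiles of the Tom- library, by 0.53 on the log2 scale (0.24 to 0.81), and lower in the Tom+ library, at -1.59 (-2.59 to -0.74). The 19 Tom- members with most UMIs of it held 86.0% of them, and 34 of 192 Tom- members held any. Mmp14, a membrane metalloproteinase of stromal cells and macrophages, went the other way, at -0.54 (-1.07 to -0.05) in the Tom- and 0.79 (0.25 to 1.28) in the Tom+ library. With 1 library per group the difference between the libraries was not tested for either gene, and 309 of the genes past the minimum had opposite signs in the 2 libraries when counting error was set aside.

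The custom entry named L1Md_A, after a LINE-1 family, is in no gene list, and its target is not stated in the sources used here. It was at 4069 CPM in Tom- and 5072 CPM in Tom+ members, 0.32 higher on the log2 scale in Tom+ (0.24 to 0.39). The same difference was 0.30 in eligible non-members, 0.14 in endothelial-high cells and 0.01 in hepatocyte-rich profiles. The custom entry named for p16, whose target is likewise not stated, had 8 UMIs in Tom- and 1 in Tom+ members.

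Cells outside the gene range also reached the marker share of the last member. Below 1000 genes there were 44 Tom- and 60 Tom+ such cells, and above 4500 genes 27 Tom- and 2 Tom+ cells. They were not counted among the members.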

How the results depend on the processing

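No paired analysis was possible because Tom- and Tom+ cells came as 1 library apiece, with no replicate number to pair or leave out. Of 158 alternatives for the main results 102 stayed near the main value, by its counting interval or by a fixed fold for counts of genes. Of 3590 for 164 named genes, 3277 stayed inside the main counting interval, which does not mean that they kept the sign. Another 277 moved past it, and 36 turned sign where the main interval excluded 0. Turns of ratios whose main interval spanned 0 are not among the 36: Stat3 kept its sign in 8 of 22 alternatives and Pax5 in 10 of 22. The cause was not tested. Alternatives that left out members rich in stellate, endothelial or hepatocyte RNA, or with a shared barcode, were chosen after seeing the data. Depth limits the ratios of genes with few UMIs, and 1 library per group leaves animal and batch differences unknown.

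The ratio of shares of eligible cells (1.501) was 0.731 with 1000 to 10000 genes, 1.06 with 2000 to 4500 genes and 1.14 with mean log levels, and is fixed by choice with 150 members a library. The tdTomato log2 ratio (1.87) was 2.55 with 600 members, 2.46 with 150 a library and 2.39 with 2000 to 4500 genes. Genes 2-fold higher in Tom+ members (75) numbered 164 with 150 members, 1 with 600, 37 with 150 a library, 36 with 500 to 4500 genes, 34 with 2000 to 4500, 49 with mean log levels, 119 thinned, 246 at a minimum of 20 CPM or none, and 7 at 200 CPM. Genes 2-fold lower (25) numbered 130, 6, 119, 150, 179 and 3 for 150 members, 600 members, thinned, 20 CPM, none and 200 CPM, 38 without the 10% with most UMIs, 39 with hepatocyte genes out of the total and 13 with a pseudocount of 2. Genes 2-fold over hepatocyte-rich profiles (1455) numbered 2276, 2959 and 286 at 20 CPM, none and 200 CPM.

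Hepatocyte RNA (12.01% of UMIs) was 10.48% with 150 members, 14.3% with 600, 11.93% with 150 a library, 12.6% with 1000 to 10000 genes, 12.145% with 500 to 4500, 13.4% with 2000 to 4500, 12.3% without Clec4f, 11.02% without Cd5l, 12.144% without Csf1r, 12.09% without Vsig4, 12.66% with mean log levels, 11.4% without the 10% with most UMIs, 12.27% as a mean over members, 12.2% thinned, 11.91% without endothelial-rich and 10.7% without hepatocyte-rich members. Further Kupffer and macrophage RNA (2.13%) was, in the settings that moved it, 2.49% with 150 members, 1.73% with 600, 2.10% with 1000 to 10000 genes, 2.22% with 500 to 4500, 1.88% with 2000 to 4500, 2.04% with mean log levels, 2.16% without the 10% with most UMIs or the endothelial-rich, 2.07% as a mean, 2.08% thinned, 2.17% without stellate-rich and 2.22% without hepatocyte-rich members.

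Named genes whose main interval excluded 0 turned sign (log2 Tom+ over Tom-) as follows. Turns of genes whose main interval spanned 0 are not listed. Among them, Gpnmb (0.15) was -0.68 without Cd5l and Top2a (-0.66) was 0.78 with 2000 to 4500 genes. With 150 members Apoe was 0.0049 and Egr1 -0.15. With 600, Col3a1 was -0.63, Col1a2 -0.45 and H2-K1 0.0046. With 150 a library, Apoa2 was 0.0033, Vsig4 -0.054, Ctss -0.041, Clec4f -0.15, Trf 0.068, C3 0.036, Ttr 0.14 and Csf1r -0.074. With 500 to 4500 genes, Apoe was 0.0037, Trf 0.030 and C3 0.00095. With 2000 to 4500, Col3a1 was -0.57, Cd5l 0.060, Col1a2 -0.43 and Mki67 0.32. Without Clec4f, Ctsd was 0.068. Without Cd5l, Col3a1 was -0.070, Col1a2 -0.27 and Lyz2 -0.052. With mean log levels, Col3a1 was -0.48, Fcgr2b -0.031 and Col1a2 -0.57. Thinned, Mcm3 was 0.57, Cdkn1b -0.17, Mki67 0.18, Lyz2 -0.13 and Ccr2 -0.17. Mmp12 was 0.15 with 1000 to 10000 genes, 0.017 without the 10% with most UMIs and 0.25 thinned, and Ctgf was -0.056 without stellate-rich members.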

Other observations

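Acute phase genes of hepatocytes, a list chosen after values were seen, summed to 6996 CPM in Tom- and 5361 CPM in Tom+ members, a log2 difference of -0.38, against -0.05 in hepatocyte-rich profiles, -0.30 in endothelial-high and -0.25 in leukocyte-high cells. In the last 100 members by rank it was -0.66 and in the first 100 it was -0.34.

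Haemoglobin RNA lay in a few members. Hbb-bs, summed over all members, was at 102 and 92.4 CPM and Hba-a2 at 104 and 102 CPM, against 8.86 and 1.29 CPM and 11.98 and 1.06 CPM in hepatocyte-rich profiles. Only 8 Tom- and 3 Tom+ members held a UMI of Hbb-bs, and 1 Tom- member held 88 of 99. Hba-a2 was counted in 6 and 3 members, and 1 Tom- member held 96 of its UMIs. The log2 ratio of Hbb-bs between the libraries, -0.15, ran from -1.79 to 5.17 over the alternative choices. Whether this RNA came from engulfed or attached red cells was not tested.

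Of 6 circadian genes that passed the minimum, 0 passed 2-fold upward and 2, Hlf and Nfil3, passed it downward relative to hepatocyte-rich profiles in both libraries, against 7.37% of all genes downward. The list had median log2 ratios of -0.93 and -0.75, against 0.44 and 0.53 over all genes. Both genes passed the minimum through their hepatocyte-rich level alone. Per1 was at 216 and 233 CPM against 125 and 104, and Hlf, an output factor of the hepatocyte clock, at 44.4 and 39.3 CPM against 102 and 104. Nfil3, a repressor in the clock, was at 41.3 and 34.6 CPM against 96.5 and 77.5.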
